A study of Mus musculus with 10 samples.

Results

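The genes described here encode 9 ubiquitin ligases of striated muscle: the F-box proteins Fbxo32 (atrogin-1), Fbxo31, Fbxo21, Fbxo40, Fbxo30 and Fbxl22, and the RING-finger proteins Trim63 (MuRF1), Trim55 (MuRF2) and Trim54 (MuRF3). They were selected by gene symbol from the 11790 genes of the deposited table, as 9 genes known or reported to act in muscle wasting or at the sarcomere, and all 9 had a row. The selection was made with earlier results of the same contrast in view, so the differences between genotypes and their p-values describe these genes and are not an independent test of them.

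A ubiquitin ligase is the last enzyme of the chain that attaches ubiquitin to a protein and so marks it for the proteasome. F-box proteins are the substrate-binding subunits of SCF ligases, in which the adaptor Skp1 and the scaffold Cul1 link them to the RING protein Rbx1, whereas the MuRF proteins carry their own RING finger and bind titin and other parts of the sarcomere. Atrogin-1 and MuRF1 are the standard markers of muscle atrophy, and their genes are known targets of FoxO transcription factors, which insulin signalling through PDK1 and AKT keeps out of the nucleus.

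RNA was sequenced from hearts of mice of 10 to 11 weeks, killed in a random-fed state. The 5 A-PDK1KO mice lacked 3-phosphoinositide-dependent kinase 1 (PDK1, gene Pdpk1) in adipocytes, and the 5 control mice were of the genotype PDK1 flox/flox. The labels state neither the promoter that drove the recombinase nor a batch, and the deletion was aimed at fat cells, not at the heart. Levels are given as FPKM, that is per kilobase of gene length and relative to the size of the library, which allows genes to be set side by side.

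The libraries held between 9249256 and 11384422 counted reads. Pdpk1 lay between 3.14 and 3.77 FPKM in control hearts and between 2.73 and 4.04 FPKM in A-PDK1KO hearts, which does not check the labels because the deletion was made in adipocytes. The tissue label was checked against 6 cardiomyocyte genes (Myh6, Myl2, Tnni3, Actc1, Ryr2, Pln), which summed to between 11950 and 14440 FPKM in control hearts and between 11140 and 12920 FPKM in A-PDK1KO hearts. Of 9 skeletal muscle genes only Acta1 (187 to 379 FPKM), Pvalb (0 to 3.29) and Tnni2 (0.207 to 1.17) had rows, and the fast myosins Myh1, Myh2 and Myh4 were not analysed here. Of 7 adipocyte genes only Cidea (24.2 to 33.2 FPKM) and Cfd (0 to 1.36) had rows. Control replicate 4 and A-PDK1KO replicate 2 had the lowest shares of mitochondrially encoded reads, 32.7% and 34.3%, against 36.1% to 41.5% in the other hearts. The atrial myosin gene Myl7 marked 4 hearts, control replicate 2 (85.9 FPKM), control replicate 5 (71.4 FPKM), A-PDK1KO replicate 3 (35.0 FPKM) and A-PDK1KO replicate 5 (47.6 FPKM), and reached 0.877 FPKM at most in the remaining 6.

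In A-PDK1KO hearts Fbxo32, Fbxo31 and Fbxo21 transcripts were higher and Fbxl22 transcripts were lower than in control hearts, by 1.38 to 1.61 times. Fbxo40, Fbxo30 and the genes of the 3 MuRF proteins, Trim63, Trim54 and Trim55, did not pass the test. Differences were estimated with limma on log2(FPKM + 1), A-PDK1KO minus control, for the 9987 genes whose mean reached 1 FPKM. A gene counted as called where its Benjamini-Hochberg adjusted p over all of these genes was below 0.05. All log2 differences refer to that transformed scale, on which genes of low level change less than in FPKM. All 9 ligase genes passed the filter on low values, and 4 of them were called, against 2.08% of all genes tested. Of the 4, 3 were higher (background 1.21%) and 1 was lower (background 0.871%). The groups of hearts did not overlap for 3 of the 9, against 4.96% of all genes tested. Before adjustment 4 of the 9 had a p under 0.05, against 15.6% of all genes tested. These shares stand beside the counts only, since the genes were picked with this contrast known. The median log2 difference of the 9 genes was 0.01 and 5 lay above 0, while over all genes tested the median was 0.02 and 54.6% lay above 0. In whole heart RNA fewer cells of a type and less RNA per cell cannot be told apart.

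**Figure D1:**
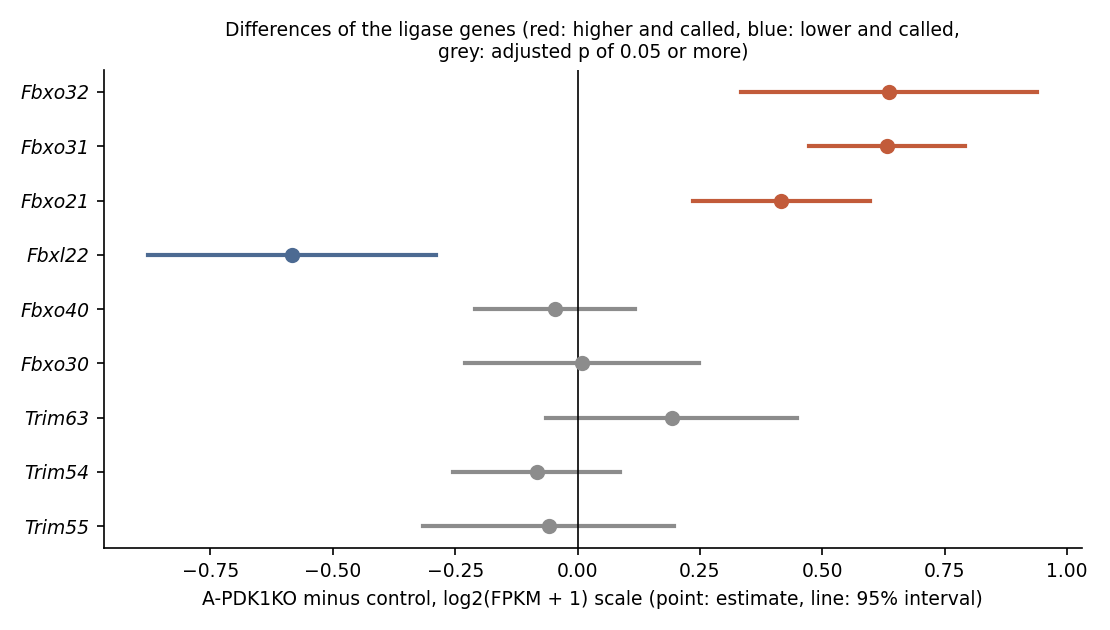
Log2 difference between A-PDK1KO and control hearts for each of the 9 ligase genes (horizontal axis, log2(FPKM + 1) scale, 5 hearts a group), with the point at the estimate and the line spanning its 95% interval. Fbxo32, Fbxo31 and Fbxo21 lie to the right of 0 and Fbxl22 to the left, and the other 5 intervals contain 0.

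Fbxo32 encodes atrogin-1, the F-box protein whose reported substrates include calcineurin, eIF3f and MyoD. The gene (ENSMUSG00000022358) lies on the minus strand of chromosome 15, from 58175879 to 58214932 in the mm10 build. Control replicates 1 to 5 had 9.98, 8.31, 8.85, 13.2 and 8.16 FPKM. The corresponding A-PDK1KO values were 12.3, 19.8, 13.8, 17.1 and 15.02 FPKM. All A-PDK1KO hearts but replicate 1 were above every control heart, and control replicate 4 stood above the other controls and overlapped with the A-PDK1KO group. The mean rose from 9.70 ± 2.09 to 15.6 ± 2.91 FPKM (SD, n = 5 per group), 1.61 times higher. The log2 difference was 0.64 ± 0.14 (SE, 95% interval 0.33 to 0.94), with a limma adjusted p of 0.0384. The call was lost when any one of 8 hearts was left out (limma adjusted p up to 0.0966, without control replicate 3). It was kept on leaving out control replicate 4 (0.0188) or A-PDK1KO replicate 1 (0.0409), and the log2 difference stayed between 0.55 and 0.74 in the 10 fits.

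Trim63 encodes MuRF1, which binds titin at the M-line and is reported to ubiquitinate troponin I, myosin chains and muscle creatine kinase. It lies on the plus strand of chromosome 4, from 134315120 to 134329629 (ENSMUSG00000028834). Control replicates 1 to 5 had 39.2, 41.7, 36.0, 59.4 and 42.2 FPKM. A-PDK1KO replicates 1 to 5 had 47.0, 54.8, 44.6, 46.3 and 54.7 FPKM. Control replicate 4 was the highest of all 10 hearts, and the other 4 control hearts were all below every A-PDK1KO heart. With all hearts the means were 43.7 ± 9.15 and 49.5 ± 4.89 FPKM, and the log2 difference of 0.19 ± 0.12 (SE, 95% interval -0.06 to 0.45) did not pass (limma adjusted p = 0.481). Leaving out control replicate 4 took the difference to 0.31, which did not pass either (limma adjusted p = 0.0811). The upper end of the interval with all hearts, 0.45, lies below the estimate for Fbxo32, while the intervals of both genes overlap and the difference between them was not tested.

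The sequence just before the start of Trim63 is shown because it was the only promoter window of the ligase genes that held either motif searched. Promoters came from a RefSeq table on GRCm38.p6 (the mm10 assembly), in which 7 of the 9 genes (all but Fbxo32 and Trim55) matched by symbol. The 250 bases before each start given there were searched on both strands for the FoxO core GTAAACA and for the glucocorticoid receptor palindrome core ACANNNTGT. These words were found in 3.16% and 5.84% of 32817 windows of that table, and in 2.03% and 3.52% of the windows of tested genes. The Trim63 window, chr4:134314870-134315119 on the plus strand, has the palindrome 206 to 198 bases and the FoxO core, on its reverse strand, 194 to 188 bases before the start, both in capitals:
Trim63: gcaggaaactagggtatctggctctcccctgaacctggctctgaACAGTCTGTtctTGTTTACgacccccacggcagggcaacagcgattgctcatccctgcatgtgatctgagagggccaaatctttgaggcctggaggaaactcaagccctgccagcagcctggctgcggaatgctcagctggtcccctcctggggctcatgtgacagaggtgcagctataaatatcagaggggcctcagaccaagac
Neither word was found in the windows of the other 6 matched genes, 1 of which (Fbxo40) has more than 1 start. By the gene coordinates given here, the Fbxo30 window (11281337 to 11281586) lies inside its gene. So does the Fbxo40 window at 36979137 to 36979386. The Trim54 window (31116362 to 31116611) ends short of the gene start at 31116712, and the bases between were not searched. A match of letters shows neither binding nor its absence.

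Trim54 and Trim55, which encode MuRF3 and MuRF2, had intervals on both sides of 0. MuRF3 binds microtubules and the Z-disc, and its gene (chromosome 5, 31116712 to 31137630, plus strand, ENSMUSG00000062077) had the highest level of the 9. Control hearts had 202, 239, 251, 237 and 251 FPKM, and A-PDK1KO hearts had 208, 196, 231, 248 and 231 FPKM, both in order of replicate number. The ranges largely coincided, with means of 236 ± 20.1 and 223 ± 20.7 FPKM and a log2 difference of -0.08 ± 0.08 (SE, 95% interval -0.26 to 0.09, limma adjusted p = 0.676). Of the 1436 exon bases of Trim54, 382 overlap the antisense gene Gm15469 (12.6 to 17.4 FPKM), and since the labels state no strand setting for the counting, reads in the shared bases cannot be assigned. MuRF2 shuttles between the sarcomere and the nucleus, and Trim55 (chromosome 3, 19644474 to 19692421, plus strand, ENSMUSG00000060913) was at 13.3, 14.8, 12.6, 16.8 and 12.9 FPKM in the control hearts. Its A-PDK1KO values were 10.4, 16.8, 12.1, 15 and 13.7 FPKM, of which 2 lay below every control heart and 1 lay just above the highest. The log2 difference was -0.06 ± 0.12 (SE, 95% interval -0.32 to 0.20, limma adjusted p = 0.871), and it turned to 0.03 without A-PDK1KO replicate 1 and to 0.00 without control replicate 4.

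**Figure D2:**
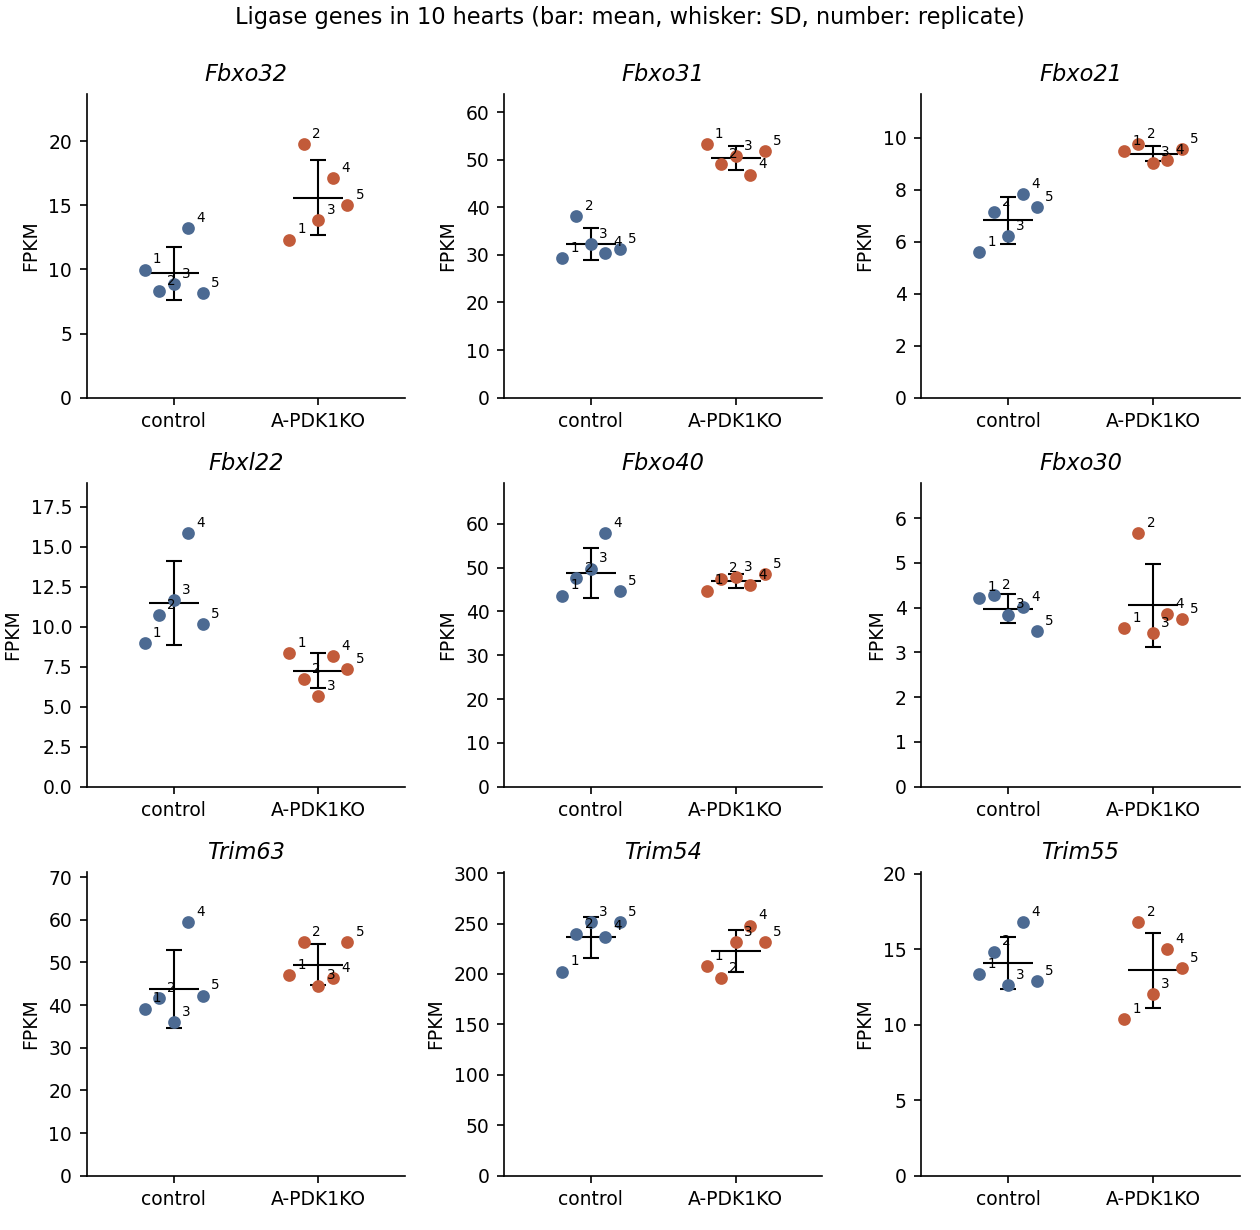
FPKM of each ligase gene (vertical axes, each from 0 and on its own scale) in the 5 control and 5 A-PDK1KO hearts, with the replicate number beside each point, the group mean as a bar and the SD as whiskers. The groups are separate for Fbxo31, Fbxo21 and Fbxl22, and control replicate 4 is the highest control heart in 6 of the 9 panels.

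Fbxo31 encodes an F-box protein that is reported to direct cyclin D1 to degradation after DNA damage. The gene is on the minus strand of chromosome 8 from 121549440 to 121578806 (ENSMUSG00000052934). Control replicates 1 to 5 stood at 29.3, 38.1, 32.2, 30.5 and 31.2 FPKM. A-PDK1KO replicates 1 to 5 stood at 53.3, 49.2, 50.8, 46.9 and 51.9 FPKM. Every A-PDK1KO heart was well above every control heart, and the lowest of the former exceeded the highest of the latter. The mean rose 1.56 times, from 32.3 ± 3.42 to 50.4 ± 2.48 FPKM, a log2 difference of 0.63 ± 0.07 (SE, 95% interval 0.47 to 0.79, limma adjusted p = 0.00429). The call was kept in all 10 fits that leave out a heart, with adjusted p-values of up to 0.0181.

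Fbxo21 encodes an F-box protein reported among the FoxO-dependent ligases of denervated skeletal muscle. It lies on the plus strand of chromosome 5 from 117976730 to 118010201 (ENSMUSG00000032898). Its control values were 5.60, 7.13, 6.23, 7.84 and 7.34 FPKM. The A-PDK1KO values were 9.48, 9.75, 9.04, 9.13 and 9.56 FPKM, closer together than the controls and all above them. The means were 6.83 ± 0.901 and 9.39 ± 0.299 FPKM, 1.38 times higher in A-PDK1KO hearts, with a log2 difference of 0.42 ± 0.08 (SE, 95% interval 0.24 to 0.60, limma adjusted p = 0.0299). The call was lost without control replicate 3 or without A-PDK1KO replicate 1, 2, 3 or 5, with adjusted p-values of up to 0.0793.

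Fbxl22 encodes an F-box protein of the cardiac Z-disc, reported to act on alpha-actinin and filamin C, and it went the other way. The gene is on the minus strand of chromosome 9 from 66508459 to 66514593 (ENSMUSG00000050503). Control replicates 1 to 5 had 8.98, 10.7, 11.7, 15.8 and 10.2 FPKM, whereas A-PDK1KO replicates 1 to 5 had 8.35, 6.74, 5.68, 8.16 and 7.35 FPKM. The groups did not overlap, although the lowest control and the highest A-PDK1KO heart were close, and control replicate 4 was again the highest. The mean fell from 11.5 ± 2.63 to 7.25 ± 1.09 FPKM, 1.58 times lower, with a log2 difference of -0.58 ± 0.14 (SE, 95% interval -0.88 to -0.29, limma adjusted p = 0.0478). This call was held by the whole set of hearts: it was lost when any one heart other than control replicate 1 was left out (limma adjusted p up to 0.112, without control replicate 3), at log2 differences of -0.63 to -0.47. Herc1, on the opposite strand and at 1.12 to 1.84 FPKM, shares 317 of the 3935 annotated exon bases of Fbxl22.

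The promoter windows of the 3 genes whose groups did not overlap are given for comparison with that of Trim63. They are chr8:121578807-121579056 on the minus strand for Fbxo31, chr5:117976520-117976729 on the plus strand for Fbxo21, where the window was shortened to end before the annotated start, and chr9:66514594-66514843 on the minus strand for Fbxl22. They hold no match to the motifs searched, so no letter is in capitals:
Fbxo31: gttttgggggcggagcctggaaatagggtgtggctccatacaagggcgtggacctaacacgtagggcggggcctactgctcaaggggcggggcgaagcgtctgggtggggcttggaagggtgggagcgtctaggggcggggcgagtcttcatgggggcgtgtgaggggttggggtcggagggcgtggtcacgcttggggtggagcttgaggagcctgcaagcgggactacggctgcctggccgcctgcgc
Fbxo21: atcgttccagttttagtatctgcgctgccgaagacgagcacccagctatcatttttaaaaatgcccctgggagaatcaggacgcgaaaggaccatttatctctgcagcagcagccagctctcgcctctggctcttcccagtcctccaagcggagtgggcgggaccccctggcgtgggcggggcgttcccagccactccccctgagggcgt
Fbxl22: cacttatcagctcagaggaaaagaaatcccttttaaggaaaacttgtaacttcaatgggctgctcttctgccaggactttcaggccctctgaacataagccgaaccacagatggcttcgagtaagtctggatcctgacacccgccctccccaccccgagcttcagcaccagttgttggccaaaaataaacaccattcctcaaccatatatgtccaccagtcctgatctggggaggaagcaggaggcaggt
The number of CpG dinucleotides was counted over all 250 bases of each window, for Fbxo21 before it was shortened. It was 18 for Fbxo31 and 20 for Fbxo21, the called genes that were higher, and 4 for Fbxl22, which was lower. Among genes not called it was 4 for Trim63, 2 for Trim54 and for both starts of Fbxo40, and 40 for Fbxo30. The median over all windows was 6, and a relation of this number to the difference was not tested.

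Fbxo40 and Fbxo30 showed no difference that passed. Fbxo40 encodes a muscle-restricted F-box protein reported to degrade the insulin receptor substrate IRS1, and its gene lies on chromosome 16 (36963460 to 36990467, minus strand, ENSMUSG00000047746). It was at 43.6, 47.7, 49.8, 57.9 and 44.6 FPKM in control hearts and at 44.7, 47.5, 47.9, 45.9 and 48.6 FPKM in A-PDK1KO hearts. The A-PDK1KO values all lay within the control range, and the log2 difference was -0.05 ± 0.08 (SE, 95% interval -0.21 to 0.12, limma adjusted p = 0.834). Fbxo30, whose product MUSA1 is a ligase that bone morphogenetic protein (BMP) signalling holds down in skeletal muscle, lies on chromosome 10 (11281330 to 11298052, plus strand, ENSMUSG00000047648). Its control values were 4.22, 4.29, 3.84, 4.02 and 3.48 FPKM and its A-PDK1KO values 3.55, 5.67, 3.43, 3.85 and 3.75 FPKM. A-PDK1KO replicate 2 was the highest of the 10 hearts by a wide margin. The log2 difference was 0.01 ± 0.11 (SE, 95% interval -0.23 to 0.25, limma adjusted p = 0.985) and turned to -0.10 without that heart. The intervals of both genes end below the estimate for Fbxo21, the smallest of the 3 increases.

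By level, the 9 genes covered a wide range, with Trim54 first and Fbxo30 last in both genotypes. Trim54 was above 98.2% of all genes tested, Fbxo40, Trim63 and Fbxo31 were above 93.1%, 92.9% and 92.2% of them, and Fbxo30 was above 47.1%. In control hearts the order of mean FPKM was Trim54, Fbxo40, Trim63, Fbxo31, Trim55, Fbxl22, Fbxo32, Fbxo21 and Fbxo30. Neighbours with overlapping ranges in control hearts were Fbxo40 and Trim63 (higher for Fbxo40 in 4 of 5 hearts), Trim63 and Fbxo31, Trim55 and Fbxl22, and Fbxl22 and Fbxo32 (higher for Fbxl22 in 4 of 5). In A-PDK1KO hearts Fbxo31 moved from the fourth to the second place, Fbxo32 from the seventh to the fifth, and Fbxl22 dropped below Fbxo21. Fbxo31 was above Trim63 in 3 of the 5 A-PDK1KO hearts and Trim63 above Fbxo40 in 4 of 5, while Fbxo31 was above Fbxo40 in all 5. Atrogin-1 transcripts were below those of MuRF1 in all 10 hearts. Behind these levels stood 177 to 287 reads per heart for Fbxo30, the gene with the fewest, and 2687 to 4053 for Trim54.

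Within genotypes several ligase genes were highest in the same hearts. Control replicate 4 was the highest control heart for 6 of the 9 (Fbxo32, Trim63, Trim55, Fbxo21, Fbxo40, Fbxl22), and A-PDK1KO replicate 2 was the highest of its group for 5 (Fbxo32, Trim63, Trim55, Fbxo21, Fbxo30). These are the hearts of lowest mitochondrial share, and their median-of-ratios scaling factors were 1.09 and 1.14 against 0.934 to 1.03 elsewhere. In A-PDK1KO replicate 2 the number of genes reaching 1 FPKM was 10723, and elsewhere it was 9671 to 10214. Over the 36 pairs of ligase genes, the Pearson correlation of deviations from the group mean across the 10 hearts had a median of 0.28, with 25 pairs above 0. Fbxo32 went with Trim55 (r = 0.86) and with Trim63 (r = 0.69), and against Fbxo31 (r = -0.56). Without those 2 hearts the correlation of Fbxo32 with Trim63 was -0.07, that with Trim55 was 0.72 and that with Fbxo31 was -0.63. The points of such a correlation share their library and its scaling, and the part of the mitochondrial share in it was not tested.

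The 2 hearts also bear on the differences between genotypes. With both left out Fbxo32 (log2 difference 0.66, limma adjusted p = 0.0294), Fbxo31 (0.62, 0.0204) and Fbxo21 (0.45, 0.0354) were called, and Fbxl22 was not (-0.45, 0.0875). With log2(Myl7 FPKM + 1) as a covariate for atrial tissue all 4 were called, at adjusted p-values of 0.0355, 0.00237, 0.0302 and 0.0481 for Fbxo32, Fbxo31, Fbxo21 and Fbxl22. Among the 6 hearts with little Myl7, 3 in each group, none of the 9 was called, at log2 differences of 0.57, 0.68, 0.48 and -0.56 for these genes in that order. In those 6 hearts limma called 4 genes of the whole table.

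Most like Fbxo32 in how their level varied within genotypes, among 4318 genes of at least 5 FPKM, were Alpk3 (r = 0.99), Setd3 (0.99), Sorbs2 (0.98), Szrd1 (0.98) and Dennd5a (0.98), over 10 hearts. Alpk3 encodes a kinase-like protein of cardiomyocytes and Setd3 the methyltransferase of actin histidine. These genes did not share the difference between genotypes: Alpk3 was at 11.1 ± 2.86 and 10.8 ± 2.21 FPKM and Setd3 at 14.4 ± 1.53 and 15.2 ± 1.71 FPKM in control and A-PDK1KO hearts, and none of the 5 was called. For Trim63 they were Med4 (0.96), Dbnl (0.93), Obsl1 (0.92), Foxj2 (0.92) and Asrgl1 (0.92). Obsl1 encodes a cytoskeletal linker related to obscurin. Without control replicate 4 and A-PDK1KO replicate 2 the correlations were 0.93 to 0.99 for the first 5 genes and 0.63 to 0.90 for the second.

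In their wider families the ligase genes ranged from the first place to the middle by level. The table has 40 genes named Fbxo, Fbxl or Fbxw, in which Fbxo40 ranked 1st, Fbxo31 2nd, Fbxo32 4th, Fbxl22 10th, Fbxo21 11th and Fbxo30 22nd by mean FPKM, and 32 genes named Trim, in which Trim54 ranked 1st, Trim63 3rd and Trim55 5th. The 6 F-box genes described here made up 40.6% to 43.6% of the summed FPKM of that family in control hearts and 42.5% to 46.5% in A-PDK1KO hearts. The other F-box genes of highest level were Fbxw5 (15.7 FPKM over all hearts), Fbxo22 (11.0), Fbxw11 (10.5), Fbxw8 (10.2) and Fbxo3 (10.1). Trim72, which encodes the membrane-repair protein MG53, stood at 113 ± 18.2 and 123 ± 21.5 FPKM in control and A-PDK1KO hearts and was followed by Trim35 (14.6 over all hearts), Trim8 (9.72), Trim28 (8.88) and Trim44 (7.68). Of these 10 other family genes, limma called Fbxo3.

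Outside the 9, 30 F-box genes were tested and 1 (3.33%), Fbxo3, was called, against 2.08% of all genes. Fbxo3 was at 8.53 to 9.26 FPKM in control hearts and at 10.2 to 13.2 FPKM in A-PDK1KO hearts, without overlap (log2 difference 0.31, limma adjusted p = 0.0496). Its call was lost whichever heart was left out, with limma adjusted p-values of 0.0596 to 0.111. It was also lost on the TPM scale (0.172) and among the 6 hearts with little Myl7 (0.389). Before adjustment 5 of the 30 (16.7%) had a p under 0.05, close to the 15.6% of all genes. The median log2 difference of the 30 was 0.10, and 24 (80%) lay above 0, against 0.02 and 54.6% over all genes. With median-of-ratios factors 22 of 30 lay above 0 (47.9% of all genes) and without A-PDK1KO replicate 2 21 of 30 did (44.9% of all genes). Of 28 TRIM genes tested, the 3 MuRF genes included, limma called 0, as did limma voom on reads recovered from the FPKM, and 2 (7.14%) had an unadjusted p under 0.05. The 25 TRIM genes outside the 9 had a median log2 difference of 0.08, with 19 (76%) above 0, against 54.6% of all genes. Without A-PDK1KO replicate 2 14 of 25 lay above 0 (44.9% of all genes), and without control replicate 4 21 of 25 did (62.3% of all genes).

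**Figure D3:**
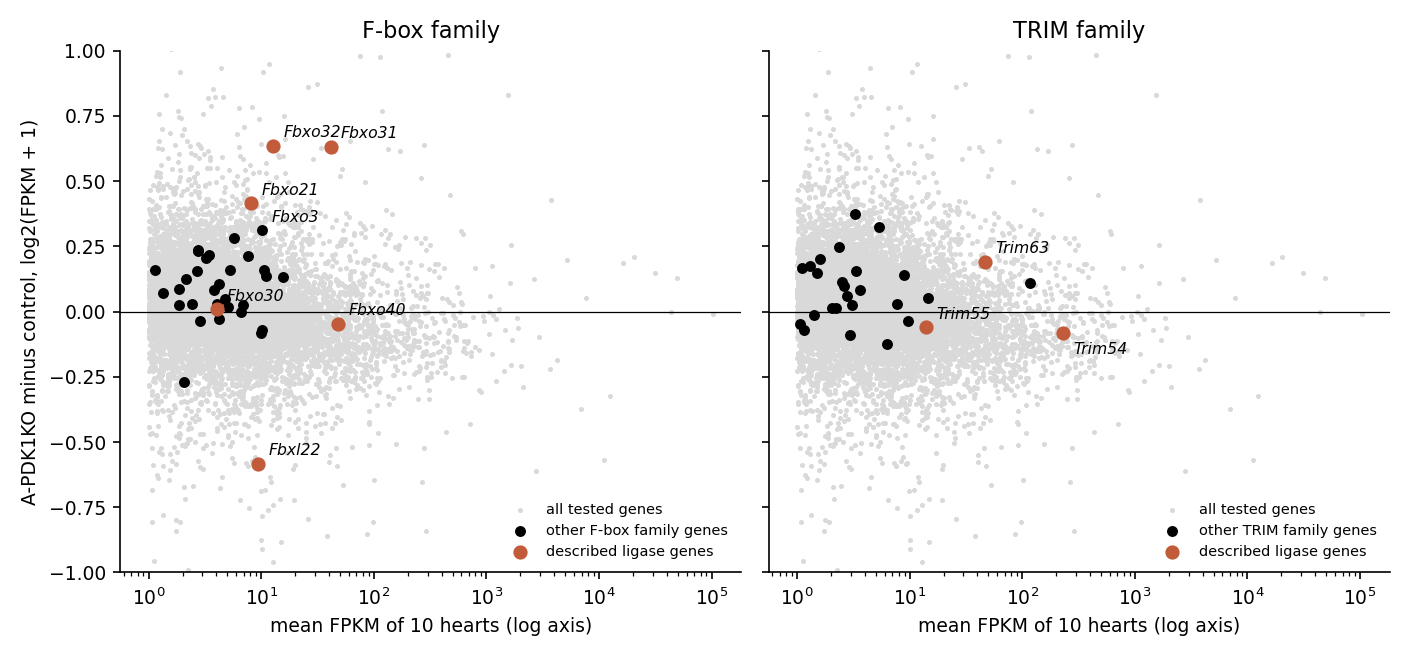
Log2 difference between A-PDK1KO and control hearts (vertical axis, drawn from -1 to 1, log2(FPKM + 1) scale) against the mean FPKM of 10 hearts (horizontal log axis) for F-box genes on the left and TRIM genes on the right, over all tested genes in grey. Fbxo32, Fbxo31, Fbxo21 and Fbxl22 lie outside the band of the other F-box genes, and the 3 MuRF genes lie within that of the other TRIM genes.

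The general machinery around the ligases was read against all genes tested, of which 2.08% were called and 15.6% had an unadjusted p under 0.05. Lists this short hold few calls at that share. Of 9 genes for the SCF core and its activation by Nedd8, 0 were called by limma or by limma voom and 1 had an unadjusted p under 0.05, Ube2m, the Nedd8-conjugating enzyme (62.8 ± 5.57 and 53.5 ± 2.60 FPKM in control and A-PDK1KO hearts, log2 difference -0.22, limma adjusted p = 0.128). Nedd8 itself differed by -0.14 and Nae1, a subunit of its activating enzyme, by 0.14. Of 19 ubiquitin-activating and -conjugating enzymes, 0 were called by limma or limma voom and 3 had an unadjusted p under 0.05: Cdc34, the enzyme that extends chains on SCF substrates (-0.27, limma adjusted p = 0.101), Ube2d3 (-0.18) and Ube2h (0.26). Of 16 deubiquitinases 0 were called by either tool and 2 had an unadjusted p under 0.05, Cyld (0.27) and Usp19 (0.19), and the next in order of p was Uchl5 (-0.16).

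Ubiquitin itself was among the transcripts that changed. Ubb, a polyubiquitin gene induced under stress, had 192, 256, 182, 222 and 225 FPKM in the control hearts and 315, 298, 294, 306 and 313 FPKM in the A-PDK1KO hearts. All A-PDK1KO hearts were above all control hearts, and the log2 difference of 0.51 (limma adjusted p = 0.0127) was called in all 10 fits that leave out a heart, and not among the 6 hearts with little Myl7 (0.107). Its coding sequence is built of near-identical repeats, so its read count is uncertain. Among 26 other ubiquitin ligases of muscle, 1 (3.85%) was called, against 2.08% of all genes tested. It was Ubr2, an N-end rule ligase reported to rise in wasting muscle. Ubr2 rose from 9.91 ± 0.576 to 13.2 ± 1.01 FPKM without overlap (log2 difference 0.38, limma adjusted p = 0.0220). This call was lost without control replicate 3 or A-PDK1KO replicate 3 or 5 (limma adjusted p up to 0.0623). It was also lost on the TPM scale (0.0753) and among the 6 hearts with little Myl7 (0.333). Those next in order of p were Asb11 (0.18) and Klhl38 (2.70 ± 0.912 and 3.81 ± 0.696 FPKM, 0.41, limma adjusted p = 0.269).

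Of 20 tested regulators upstream of these ligases, 1 (5%) was called, against 2.08% of all genes tested. The groups of hearts did not overlap for 3 of the 20, against 4.96% of all genes tested. A limma unadjusted p under 0.05 was reached by 6 (30%), against 15.6% of all genes tested. Of these 6, 1 was higher in A-PDK1KO hearts, and log2 differences of the list ran from -0.61 to 0.24. Akt1, the kinase that PDK1 phosphorylates and that in turn restrains FoxO proteins, was at 29.8 to 32.1 FPKM in control hearts and at 21.4 to 24.8 FPKM in A-PDK1KO hearts. The groups were separate and the log2 difference was -0.40 (limma adjusted p = 0.00956), called whichever heart was left out but not on the TPM scale (limma adjusted p = 0.0578) or among the 6 hearts with little Myl7 (0.305). Foxo1 (2.22 ± 0.154 and 2.80 ± 0.287 FPKM, 0.24, limma adjusted p = 0.163) and Akt2 (21.9 ± 0.832 and 19.7 ± 0.742 FPKM, -0.15, limma adjusted p = 0.218) also had separate groups but did not pass. Of 5 tested genes of the BMP pathway that bears on Fbxo30, limma and limma voom called 0, and 1 had an unadjusted p under 0.05, the receptor gene Bmpr1a (-0.25). Smad4 (0.12) and Smad1 (0.13) followed.

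Among 14 genes known to respond to FoxO factors or glucocorticoids along with the atrophy ligases, 3 were called, all higher, where 1.21% of all genes tested were called higher. Fkbp5, a co-chaperone gene induced by glucocorticoids, rose 2.30 times, from 2.69 ± 0.651 to 6.18 ± 1.93 FPKM (log2 difference 0.94, limma adjusted p = 0.0220). Gabarapl1, an autophagosome gene, rose 1.71 times, from 88.0 ± 14.9 to 151 ± 21.9 FPKM (0.77, limma adjusted p = 0.0127). Ccng2, which encodes the cell-cycle inhibitor cyclin G2, rose 1.57 times, from 4.00 ± 0.645 to 6.29 ± 0.951 FPKM, with overlap (0.54, limma adjusted p = 0.0325). The Gabarapl1 call was kept whichever heart was left out, and was lost among the 6 hearts with little Myl7 (0.107). The Fkbp5 call was lost without control replicate 3 or A-PDK1KO replicate 1 or 5 (up to 0.0606), and the Ccng2 call was lost without any one of 7 hearts, kept only without control replicate 2, control replicate 5 or A-PDK1KO replicate 4 (up to 0.0839). Ccng2 was also not called on the TPM scale (limma adjusted p = 0.0510), with median-of-ratios factors (0.0528) or with quantile normalization (0.0541). Its call was lost without both hearts of lowest mitochondrial share as well (0.0874). Among the 6 hearts with little Myl7 neither Fkbp5 (0.251) nor Ccng2 (0.238) was called. The other 11 genes of this list were not called. Its median was 0.12, with 8 of 14 (57.1%) above 0, against 54.6% of all genes tested.

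Transcripts of proteins reported as substrates of these ligases were mostly not called. Of 19 tested 4 (21.1%) had a difference above 0, against 54.6% of all genes, the median was -0.10, and 8 (42.1%) had an unadjusted p under 0.05, against 15.6%. The 6 cardiomyocyte marker genes, of which Myh6, Myl2 and Tnni3 are also in this list, lay on the same side: 0 of 6 were above 0, their median was -0.15, limma called 0 and limma voom 1, and 3 had an unadjusted p under 0.05. Their part in the list's values was not tested. Of the 19, limma called 1 (5.26%), against 2.08% of all genes tested. It was Ccnd1, which encodes cyclin D1, reported as a substrate of Fbxo31. Ccnd1 fell from 10.6 ± 1.15 to 7.71 ± 0.413 FPKM without overlap (-0.41, limma adjusted p = 0.0240). This call was lost without control replicate 3 or A-PDK1KO replicate 1, 3 or 5 (limma adjusted p up to 0.0647). It was also lost on the TPM scale (0.0899), without both hearts of lowest mitochondrial share (0.0584) and among the 6 hearts with little Myl7 (0.228). Tnni3, cardiac troponin I, was at 2157 ± 94.2 and 1865 ± 71.0 FPKM (-0.21, limma adjusted p = 0.0605) and was called by limma voom, as was Ccnd1. Calr, calreticulin, was at 77.3 ± 7.85 and 62.5 ± 3.68 FPKM (-0.30, limma adjusted p = 0.0661) and was called by neither limma nor limma voom. Of 8 tested genes listed for the Z-disc and autophagy, 1 (12.5%) was called, against 2.08% of all genes tested. A limma unadjusted p under 0.05 was reached by 4 (50%), 3 of them higher, against 15.6% of all genes. The called gene was Myoz2 (calsarcin-1), which fell from 343 ± 16.6 to 271 ± 11.6 FPKM (-0.34, limma adjusted p = 0.0127). Myoz2 was called whichever heart was left out, but not with median-of-ratios factors (limma adjusted p = 0.0615) or among the 6 hearts with little Myl7 (0.337). The autophagy receptors Sqstm1 (215 ± 22.0 and 261 ± 20.4 FPKM, 0.28, limma adjusted p = 0.0983) and Nbr1 (0.25, limma adjusted p = 0.139) did not pass.

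**Figure D4:**
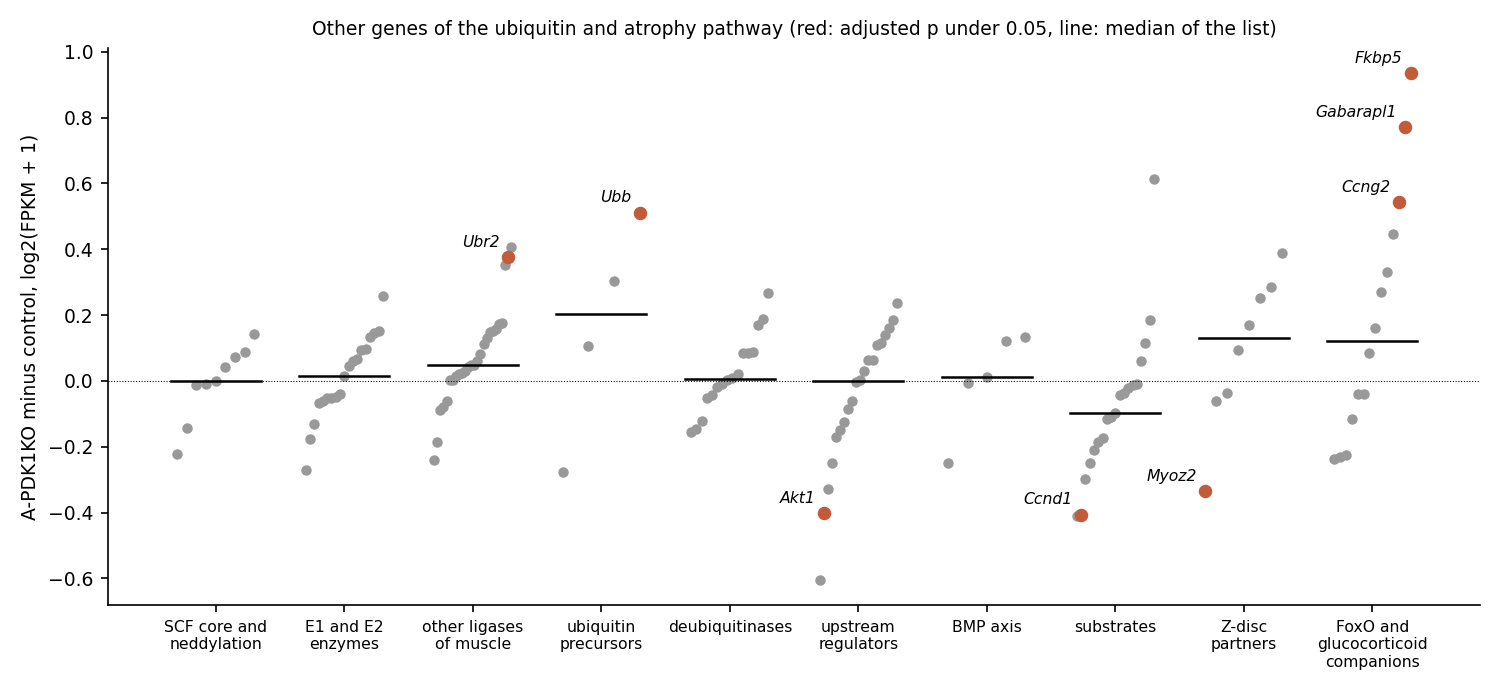
Log2 differences between A-PDK1KO and control hearts (vertical axis, log2(FPKM + 1) scale) for every tested gene of 10 lists around the ligases, each point 1 gene, red where called and with the list's median as a line. Called genes are Ubr2, Ubb, Fkbp5, Gabarapl1 and Ccng2 above 0 and Akt1, Ccnd1 and Myoz2 below it.

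The differences of the 4 called ligase genes changed little in size under other processing, while their calls often did not hold. Over 88 refits of these 4 genes (10 with a heart left out and 12 other settings each) the sign was kept in 88, and the call was kept in 54 and lost in 34. On the TPM scale, for which each heart's FPKM were divided by their sum, Fbxo31 alone of the 9 was called, with Fbxo32 at a limma adjusted p of 0.0908, Fbxo21 at 0.0838 and Fbxl22 at 0.106. With limma voom on recovered reads all 4 were called, at adjusted p-values of 0.0148 for Fbxo32, 0.000471 for Fbxo31, 0.0148 for Fbxo21 and 0.0249 for Fbxl22.

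**Figure D5:**
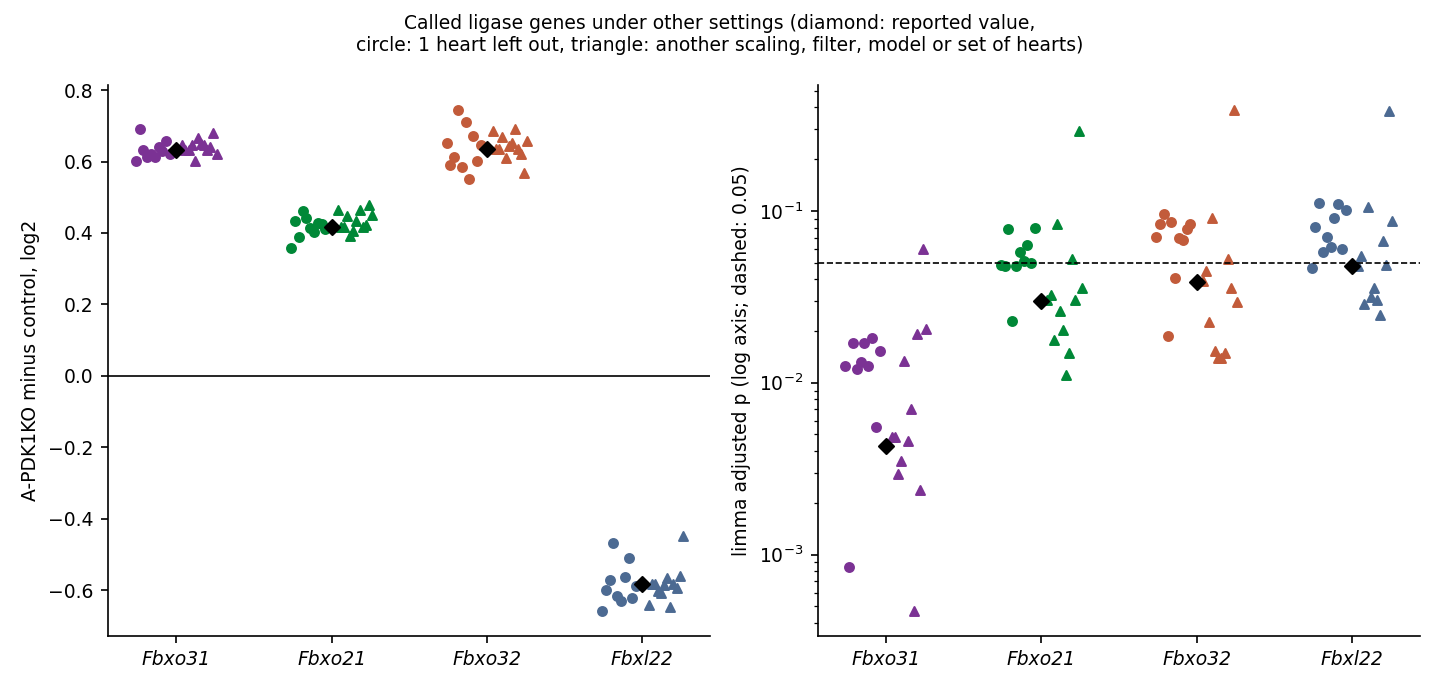
Log2 difference (left) and limma adjusted p (right, log axis, dashed line at 0.05) of the 4 called ligase genes as reported (diamonds), with each heart left out (circles) and under other settings (triangles). The differences stay on one side of 0 throughout, and the adjusted p of Fbxo31 crosses 0.05 only among the 6 hearts with little Myl7.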

How the data were processed

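The deposited table holds FPKM values, computed by the authors, for 11790 genes in 10 hearts, 5 A-PDK1KO and 5 control, assigned by the genotype label. FastQC 0.11.7 is named per the labels' protocols, and Trimmomatic 0.38, HISAT2 2.1.0, featureCounts 1.6.3 and the build mm10 per the submitters' processing notes. Annotation and strand setting: not given in the sources used here. Each gene reached 1 FPKM in some heart, and a column of cluster numbers (0 to 15) in the deposited table was not used. Each heart was taken as 1 mouse.

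FPKM were converted to log2(FPKM + 1), genes whose mean reached 1 FPKM were kept, and A-PDK1KO was compared with control with limma 3.58.1 in R 4.3.3 (empirical Bayes with trend, two-sided, Benjamini-Hochberg over all tested genes). The limma step was checked on simulated data, in which every gene had the same dispersion and hearts of a group had the same composition. That check does not cover differences in composition or scaling between hearts. Dividing FPKM by the value of 1 read, with exon lengths of GENCODE mouse release 21, gave whole reads within 0.05 for 98.4% of values, or in all hearts for 11578 genes (98.2%). These reads were used for limma voom. For Fbxl22 they were whole only at a length of 4035 bases, found from its values, where the annotation gives 3935. Depth limits precision as given by the reads per gene. The p-values set the difference between groups against the spread between these hearts, moderated over all tested genes.

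Named are the 9 ligase genes; from each pathway list every called gene and, where fewer than 3 were called, those of smallest p up to 3; from the F-box and TRIM families every called gene and the 5 of highest level; and the 5 genes most like Fbxo32 and Trim63. Some results under this rule are not reported here. The genes and lists were chosen with earlier results of these data known. Alternatives were a pseudocount of 0.1, a filter at 5 FPKM or none, 4 other scalings, voom, a replicate block, an atrial covariate, the 6 hearts with Myl7 under 10 FPKM, a threshold of 0.1, each heart left out and, added after seeing the data, 8 hearts without control replicate 4 and A-PDK1KO replicate 2.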

Additional observations from a re-analysis of the deposited data

Results flagged for a closer look

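The level of each of the 9 ligase genes was examined for a heart that stood apart from the other 4 of its genotype, by Dixon's ratio of the gap to the range with a limit of 0.71. Of the 18 sets of 5 hearts 2 passed it, where chance passes about 1 in 20.

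Trim63 reached 59.4 FPKM in control replicate 4, where the remaining control hearts had 36.0 to 42.2 FPKM, a gap of 0.733 of the range. Without that heart the log2 difference of Trim63 went from 0.19 to 0.31 (limma adjusted p = 0.0811). Fbxo30 reached 5.67 FPKM in A-PDK1KO replicate 2, where the remaining A-PDK1KO hearts had 3.43 to 3.85 FPKM, a gap of 0.811 of the range. These are the hearts of lowest mitochondrial share, 32.7% and 34.3%, and the part of that share in the high values was not tested.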

How the results depend on the processing

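The count of called genes was 208 as reported, 58 on the TPM scale, 315 (221 higher and 94 lower) with mitochondrially encoded and haemoglobin genes left out of the scaling, 4 among the 6 hearts with little Myl7, 369 at an adjusted p under 0.1, and 57 to 150 with 1 heart left out. Higher genes made up 58.2% of the calls, 70.2% under that scaling, 49.3% with median-of-ratios factors, 40.9% without A-PDK1KO replicate 2 and 25% among the 6 hearts. Of the 9 ligase genes 4 were called, and 1 was on the TPM scale, 0 among the 6 hearts (limma, which called 4 genes there in all) and 1 to 3 with 1 heart left out. Of the F-box genes 5 were called, and 3 were with no filter on low values, 1 on the TPM scale, 0 among the 6 hearts, 3 in the 8 hearts and 1 to 3 with 1 heart left out. Of the TRIM genes 0 were called, and 1 was with mitochondrially encoded and haemoglobin genes left out of the scaling and 1 at an adjusted p under 0.1. Fewer hearts entered the fits of 6, 8 or 9 hearts, and for the other settings the cause was not tested.

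The sign turned for 3 genes that were not called. Fbxo30 went from 0.0084 to -0.0178 with median-of-ratios factors, -0.0253 with quantile normalization and -0.0918 in the 8 hearts, and ranged from -0.0959 to 0.0514 with 1 heart left out. Fbxo40 went to 0.0125 in the 8 hearts and ranged from -0.0829 to 0.0170, and Trim55 ranged from -0.134 to 0.0263, with 1 heart left out. The median of all genes moved by less than 0.1 under every setting run.

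The labels do not say that hearts of the same number belong together, and their deviations from the group means did not go together (r = -0.05, -0.12, 0.05, 0.09 and 0.08 for numbers 1 to 5). With the replicate number as a block 153 genes were called, 1 of the 9 ligase genes and 1 of the F-box genes, Fbxo31 (limma adjusted p = 0.0192), with Fbxo32 and Fbxo21 at 0.0525 and Fbxl22 at 0.0671. The block also ended the calls of Ubr2 (0.0525), Fkbp5 (0.0673) and Fbxo3 (0.0926). Reads limit the lowest gene, Fbxo30, the most, with 177 to 287 per heart.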
